A study of Arabidopsis thaliana with 8 samples.

Results

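The 6 genes AT5G09570, NDB4, AT2G21640 (UPOX), AT2G32020, AT2G04050 and AT2G41730, most of them known from work on impaired mitochondria, were followed across roots of Arabidopsis thaliana. They are 6 of the 13356 genes that a probe set of these arrays names alone, and each of the 6 has 1 such probe set. They were chosen by their signal on these arrays, which was high in iron-deficient fit roots, so every difference that holds those arrays is given below as a description and without a test. The roots came from fit plants without iron, WT plants without iron, fit plants with iron and WT plants with iron, written here as fit -Fe, WT -Fe, fit +Fe and WT +Fe, with 2 arrays of biological replicates each. The fit plants are mutants named for FIT, a bHLH regulator that drives iron uptake in the root. The allele is not given in the sources used here, and no probe set names FIT alone, so the mutation was not checked on these arrays. All plants spent 14 days on Gamborg's B5 medium and 3 days on treatment plates, which held 50 µM Fe(III)-EDTA for +Fe, or no added iron and 300 µM of the iron chelator ferrozine for -Fe. The -Fe groups therefore differ from the +Fe groups in the chelator as well as in the iron supply.

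Plant mitochondria need iron for the haem and iron-sulfur groups of the respiratory chain. When the chain is blocked, membrane-bound NAC transcription factors are released and raise a set of nuclear genes, a route known as mitochondrial retrograde signalling. Alternative oxidases and alternative NAD(P)H dehydrogenases, which move electrons past the proton-pumping complexes, are the best known products of that set. The arrays measure transcripts, and no property of mitochondria was measured.

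Values are log2 signals after RMA, the background correction, normalisation and probe summary used for Affymetrix arrays. Array medians lay between 6.81 and 6.88. A gene counts as measured here if a probe set names it alone, so others may be on the array without being identified. The root hair expansins EXPA7 and EXPA18, the 2 measured of 10 root markers, had mean log2 signals of 8.54 and 8.31. Of the 7 shoot markers 3 were measured, and they had signal in every group: RCA, an activase of carbon fixation, had 6.95 and 6.85 in fit -Fe roots, 6.95 and 7.04 in WT -Fe roots, 7.49 and 7.66 in fit +Fe roots and 7.57 and 7.68 in WT +Fe roots. LHCB4.1 and PORB, of light harvesting and chlorophyll synthesis, averaged 7.97 and 6.58 over all arrays, and neither they nor RCA were called in any comparison. Control transcripts for actin, GAPDH and ubiquitin are probed at both ends, and a high 3' to 5' signal ratio is a sign of shortened RNA. The geometric mean of their 3 ratios was 5.22 on fit -Fe replicate 2 and 3.08 on WT -Fe replicate 2, against 1.07 to 1.53 on the other 6 arrays. These 2 arrays stand apart. The median of the 6 genes and some single results are given with and without them, and the other values hold them.

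AT5G09570 encodes a small mitochondrial protein with paired cysteines of the twin CX9C type. Its log2 signal was 10.36 and 10.63 in fit -Fe roots, 7.62 and 8.29 in WT -Fe roots, 6.54 and 6.55 in fit +Fe roots, and 6.07 and 6.65 in WT +Fe roots. Both fit -Fe arrays lay above every other array, both WT -Fe arrays lay above all 4 +Fe arrays, and the +Fe groups overlapped. The group means were 10.50 ± 0.19 in fit -Fe, 7.96 ± 0.47 in WT -Fe, 6.54 ± 0.01 in fit +Fe and 6.36 ± 0.41 in WT +Fe (SD, n = 2 each). The signal was thus 15.5-fold higher in fit -Fe than in fit +Fe roots and 5.81-fold higher than in WT -Fe roots.

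NDB4 is an alternative NAD(P)H dehydrogenase at the mitochondrial inner membrane, which passes electrons to ubiquinone without pumping protons. It had 7.94 and 8.62 in fit -Fe roots, 5.46 and 6.10 in WT -Fe roots, 5.40 and 5.33 in fit +Fe roots and 5.69 and 5.38 in WT +Fe roots. The fit -Fe arrays stood 1.84 or more above every other array on the log2 scale, while the other 6 arrays spanned 0.77 and the WT -Fe pair overlapped the +Fe arrays. The mean was 8.28 ± 0.48 in fit -Fe, 5.78 ± 0.45 in WT -Fe, 5.36 ± 0.05 in fit +Fe and 5.54 ± 0.22 in WT +Fe (SD, n = 2 each). That is 7.57-fold higher in fit -Fe than in fit +Fe and 5.66-fold higher than in WT -Fe.

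AT2G21640 (UPOX) encodes a mitochondrial protein named for its rise under oxidative stress. It had 8.66 and 10.35 in fit -Fe roots, 5.08 and 6.61 in WT -Fe roots, 5.16 and 5.27 in fit +Fe roots and 5.01 and 4.77 in WT +Fe roots. Both fit -Fe arrays were the highest, but replicates differed by 1.69 in fit -Fe and by 1.53 in WT -Fe, against 0.11 in fit +Fe and 0.24 in WT +Fe, and replicate 1 of WT -Fe lay among the +Fe arrays. Its mean was 9.50 ± 1.20 in fit -Fe, 5.85 ± 1.08 in WT -Fe, 5.22 ± 0.08 in fit +Fe and 4.89 ± 0.17 in WT +Fe (SD, n = 2 each). The fit -Fe signal was 19.5-fold higher than in fit +Fe roots and 12.6-fold higher than in WT -Fe roots. From replicate 1 of fit -Fe alone, the log2 difference was 3.44 to fit +Fe and 2.81 to WT -Fe, against 4.29 and 3.66 from both arrays. From replicate 2 alone these were 5.13 and 4.50.

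AT2G32020 belongs to the acyl-CoA N-acyltransferase family, enzymes that move acyl groups onto amines. It had 8.42 and 8.98 in fit -Fe roots, 6.77 and 7.18 in WT -Fe roots, 7.50 and 6.90 in fit +Fe roots and 6.79 and 6.53 in WT +Fe roots. The fit -Fe arrays were the highest by 0.92 or more, and here the next highest array was of fit +Fe, not of WT -Fe. The fit -Fe signal was 2.83-fold higher than in fit +Fe and 3.30-fold higher than in WT -Fe.

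AT2G04050 is a member of the MATE family of efflux carriers, which export organic molecules in exchange for protons or sodium. Its signal was dim throughout, at 5.24 and 5.92 in fit -Fe roots, 4.19 and 4.27 in WT -Fe roots, 4.42 and 4.18 in fit +Fe roots, and 4.05 and 4.28 in WT +Fe roots. The fit -Fe arrays lay above the other 6, which spanned 0.38 with all 3 groups overlapping. The fit -Fe signal was 2.42-fold higher than in fit +Fe and 2.54-fold higher than in WT -Fe. Its mean over all arrays, 4.57, fell under the 25th percentile of all probe sets (4.96), so it alone of the 6 drops out when the dimmest probe sets are removed. From replicate 1 of fit -Fe alone the log2 difference to fit +Fe was 0.94, against 1.28 from both.

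AT2G41730 encodes a small protein of unknown function. It had 8.99 and 10.00 in fit -Fe roots, 5.93 and 6.75 in WT -Fe roots, 6.28 and 5.37 in fit +Fe roots and 5.42 and 5.46 in WT +Fe roots. The fit -Fe arrays were again the highest, and WT -Fe overlapped fit +Fe but not WT +Fe. The fit -Fe signal was 12.7-fold higher than in fit +Fe and 8.90-fold higher than in WT -Fe. Its probe set is of the _x_at type, in which some probes may also match other transcripts.

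**Figure D1:**
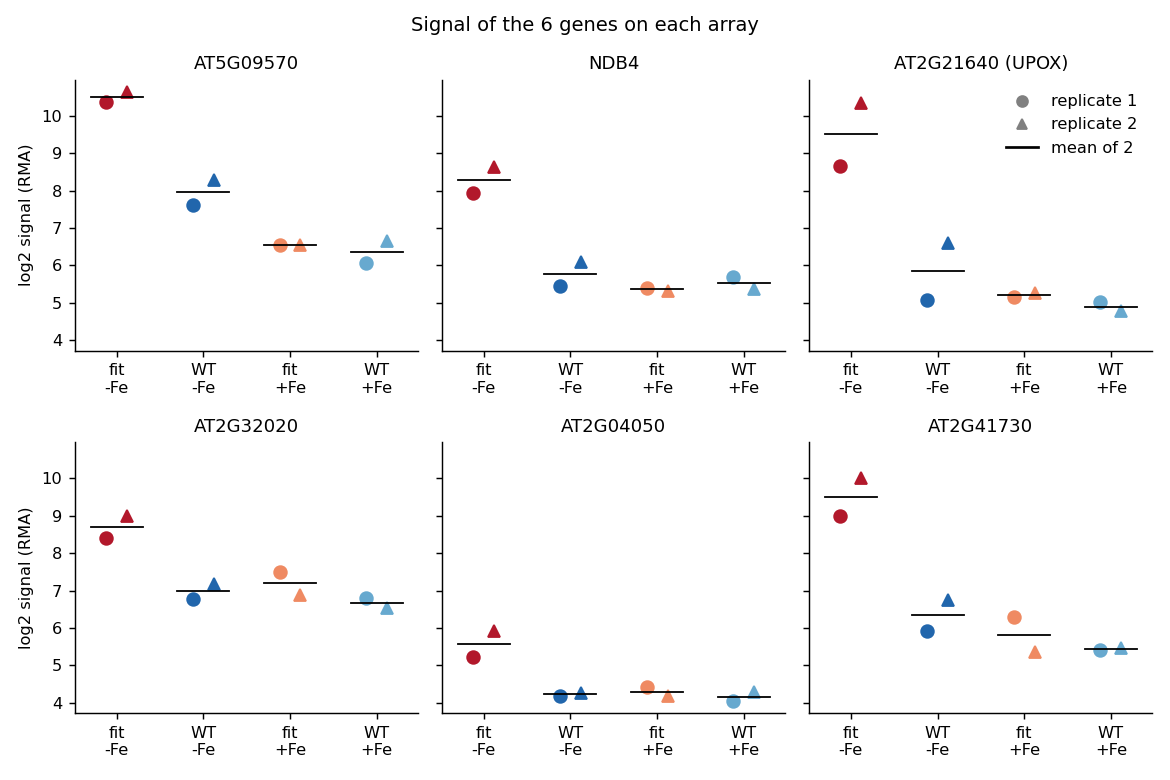
The log2 RMA signal of the 6 genes is plotted for each array, with circles for replicate 1, triangles for replicate 2 and a line at the mean of 2. In all 6 panels both fit -Fe arrays lie above the other 6 arrays, and in both -Fe groups the triangle lies above the circle.

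Over the 6 genes the median log2 fold change of fit -Fe over fit +Fe was 3.29, with a range from 1.28 for AT2G04050 to 4.29 for AT2G21640, beside 0.03 over all 22746 probe sets. Between fit -Fe and WT -Fe the median was 2.52, from 1.35 to 3.66, beside 0.03 over all probe sets. The iron response in fit minus that in WT had a median of 2.51, from 1.19 for AT2G32020 to 3.33 for AT2G21640. For all 6 genes both fit -Fe arrays lay above the other 6 arrays, as did 5.55% of all probe sets. That pattern is what the genes were chosen for, so nothing is read from the count. The choice and these differences use the same arrays, and 2 arrays against 2 could not give an exact permutation p under 0.333 in any case.

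**Figure D2:**
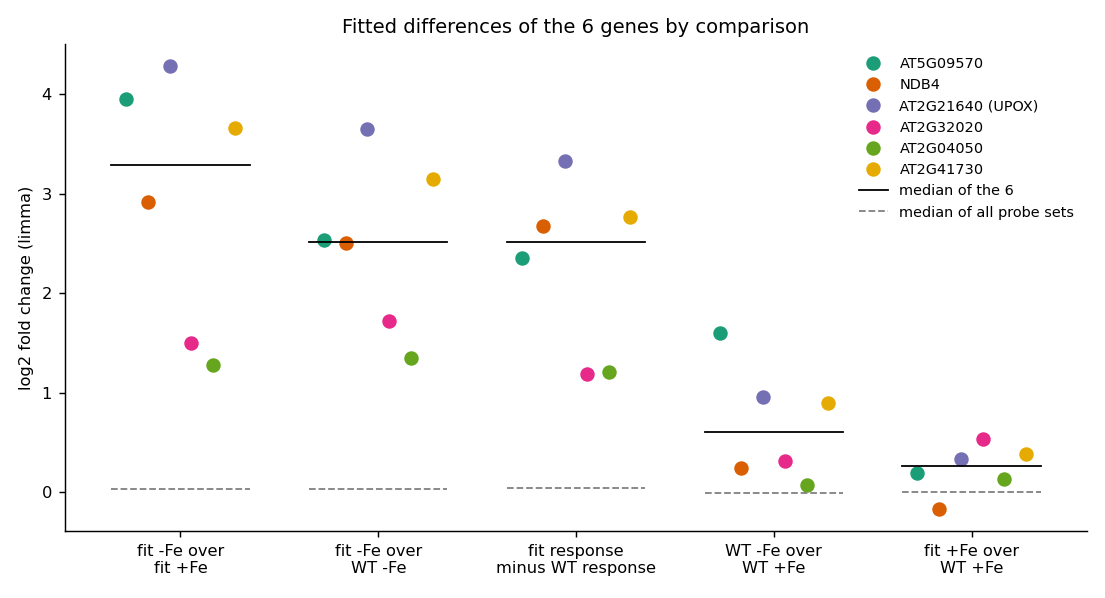
The log2 fold changes of the 6 genes (vertical axis) are plotted for the 5 comparisons, with a solid line at their median and a dashed line at the median of all probe sets. The 3 comparisons on the left hold the fit -Fe arrays and have medians of 3.29, 2.52 and 2.51. On the right, WT -Fe over WT +Fe has a median of 0.61 and fit +Fe over WT +Fe a median of 0.26.

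All 6 genes were higher on replicate 2 than on replicate 1 in fit -Fe roots, by 0.27 for AT5G09570 to 1.69 for AT2G21640, and in WT -Fe roots, by 0.09 for AT2G04050 to 1.53 for AT2G21640. Over all probe sets, 51.5% were higher on replicate 2 in fit -Fe and 52.5% in WT -Fe. In fit +Fe 2 of the 6 genes were higher on replicate 2, beside 50.9% of all probe sets, and in WT +Fe 3 were, beside 50.1%. Replicate 2 of both -Fe groups carries the high control ratios of 5.22 and 3.08, and the part of the ratio in these replicate differences was not tested. On fit -Fe replicate 1, whose control ratio of 1.50 lies within the range of the +Fe arrays, all 6 genes were above every array of the other 3 groups, as were 17.9% of all probe sets. This array was among those that chose the genes, so nothing is read from that count either. Without replicate 2 of both -Fe groups the median log2 fold change of the 6 genes was 2.87 for fit -Fe over fit +Fe and 2.61 for fit -Fe over WT -Fe. With the ratio as a covariate the medians were 2.83 and 2.33.

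**Figure D3:**
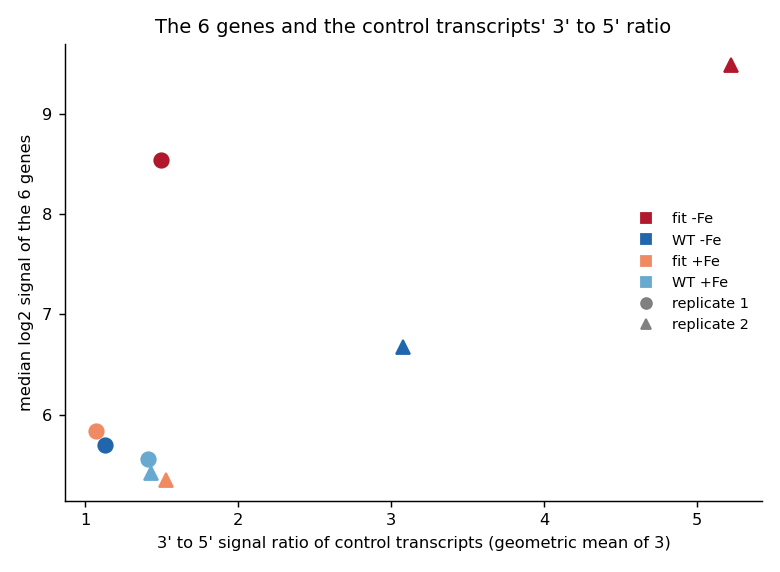
Each point is 1 array, placed by the control transcripts' 3' to 5' signal ratio (horizontal axis, geometric mean of 3) and by the median log2 signal of the 6 genes (vertical axis). Fit -Fe replicate 1 has a median of 8.54 at a ratio of 1.50, and fit -Fe replicate 2 has 9.49 at 5.22, while WT -Fe replicate 2 has 6.68 at 3.08.

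The next question was whether WT roots without iron show any of this. This comparison does not hold the fit -Fe arrays, but its WT -Fe arrays were the reference when the 6 genes were picked for exceeding WT. By limma none of the 6 was called between WT -Fe and WT +Fe at an adjusted p under 0.05, where 0.431% of all probe sets were. At an unadjusted p under 0.05 it was 1 of the 6, AT5G09570, against 7.2% of all probe sets. AT5G09570 was 3.03-fold higher in WT -Fe roots (log2 1.60, SE 0.28, limma adjusted p = 0.09). With the control ratio as a covariate it was called (log2 1.49, limma adjusted p = 0.011), and over all 14 alternatives its adjusted p ran from 0.011 to 0.537. The log2 fold changes of the others were 0.96 (SE 0.60) for AT2G21640, 0.90 (SE 0.43) for AT2G41730, 0.32 (SE 0.29) for AT2G32020, 0.25 (SE 0.30) for NDB4 and 0.07 (SE 0.25) for AT2G04050, with adjusted p from 0.751 to 0.990. The value of AT2G21640 was 0.19 without WT -Fe replicate 2 and 1.72 without WT -Fe replicate 1. For 3 of the 6, AT5G09570, AT2G21640 and AT2G41730, both WT -Fe arrays lay above both WT +Fe arrays, as did 18.9% of all probe sets. The median of the 6 was 0.61 and became 0.15 without WT -Fe replicate 2, the array with the control ratio of 3.08, and 0.94 without WT -Fe replicate 1.

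The fit +Fe arrays were a reference too when the genes were picked, which favours low values on them, so the next comparison is not free of the choice. Between fit and WT roots with iron, by limma 0 of the 6 were called at an adjusted p under 0.05, where 0.00879% of all probe sets were, and 0 had an unadjusted p under 0.05, where 1.84% did. The highest log2 fold change of fit +Fe over WT +Fe was 0.53 (SE 0.29, limma adjusted p = 1.0) for AT2G32020 and the lowest -0.17 (SE 0.30) for NDB4, with a median of 0.26. AT2G32020 had 7.50 and 6.90 in fit +Fe roots against 6.79 and 6.53 in WT +Fe roots, 2 pairs that do not overlap. The same was so for AT2G21640, and over all probe sets for 17.3%. This does not show that the genotypes were alike with iron.

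Among themselves the 6 genes followed each other closely over the 8 arrays, with Pearson's r between 0.882 (AT5G09570 and AT2G32020) and 0.985 (NDB4 and AT2G21640). Those values rest on the contrast that chose the genes. Over the 6 arrays without fit -Fe, r ran from -0.13 (NDB4 and AT2G04050) to 0.85 (NDB4 and AT2G21640), and it was 0.62 or higher for all 6 pairs among AT5G09570, NDB4, AT2G21640 and AT2G41730. The points share their libraries and the high ratio of WT -Fe replicate 2, so these are descriptions of the arrays.

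Of the 6 genes, 5 carry a chromosome 2 locus number, as do 16.3% of the named genes, and none of the 6 lies directly beside another in the RefSeq gene table. Relatives and neighbours on the array give a view of how far each signal extends. AT5G64400, the paralogue of AT5G09570, had 12.31 and 12.50 in fit -Fe roots, 12.39 and 12.55 in WT -Fe roots, 12.46 and 12.53 in fit +Fe roots and 12.59 and 12.72 in WT +Fe roots. The fit -Fe arrays did not stand above the others, and the log2 fold change of fit -Fe over fit +Fe was -0.09 (SE 0.17, limma adjusted p = 0.895).

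The NDB family of external dehydrogenases has 4 members and all were measured. NDB3 had 6.68 and 6.66 in fit -Fe roots, 5.79 and 5.75 in WT -Fe roots, 6.07 and 5.46 in fit +Fe roots and 5.74 and 5.84 in WT +Fe roots. Both fit -Fe arrays were the highest, with log2 fold changes of 0.91 over fit +Fe (SE 0.22, limma adjusted p = 0.297) and 0.90 over WT -Fe (SE 0.22, adjusted p = 0.345), so it did not pass. NDB2 had 9.77 and 9.49 in fit -Fe roots against 9.95 and 9.66 in fit +Fe roots, a log2 fold change of -0.17 (SE 0.19), and NDB1 had 0.28 (SE 0.35), neither called. NDC1, another alternative dehydrogenase, had -0.41 (SE 0.34), so none of the 4 measured of 13 further genes of alternative respiration was called. Over all probe sets 0.202% were called for fit -Fe over fit +Fe, so nothing is read from this.

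AT2G32030, the acyltransferase gene next to AT2G32020, had 5.49 and 5.57 in fit -Fe roots against 5.24 and 5.36 in fit +Fe roots, with a log2 fold change of 0.23 (SE 0.18, limma adjusted p = 0.738). Of the MATE genes near AT2G04050, AT2G04070 had 5.24 and 5.92 in fit -Fe roots against 5.50 and 5.19 in fit +Fe roots, a log2 fold change of 0.23 (SE 0.25, limma adjusted p = 0.802). AT2G04060, the direct neighbour, was looked up after the values were seen and had 4.09 and 4.79 in fit -Fe roots against 4.30 and 4.30 in fit +Fe roots, a log2 fold change of 0.14 (SE 0.25). AT2G21630, beside AT2G21640, had log2 fold changes of 0.21 (SE 0.29) for fit -Fe over fit +Fe and 0.67 over WT -Fe. For AT2G20805, beside NDB4, they were 0.24 (SE 0.17) and 0.01. The remaining direct neighbours of the 6 genes had no probe set naming them alone, so this view is partial. No relative or neighbour passed in any of the 5 comparisons, in which 0.00879% to 0.431% of all probe sets were called. With shares that low, nothing is read from the lack of calls among so few genes. The differences between these genes and the 6 were not tested.

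**Figure D4:**
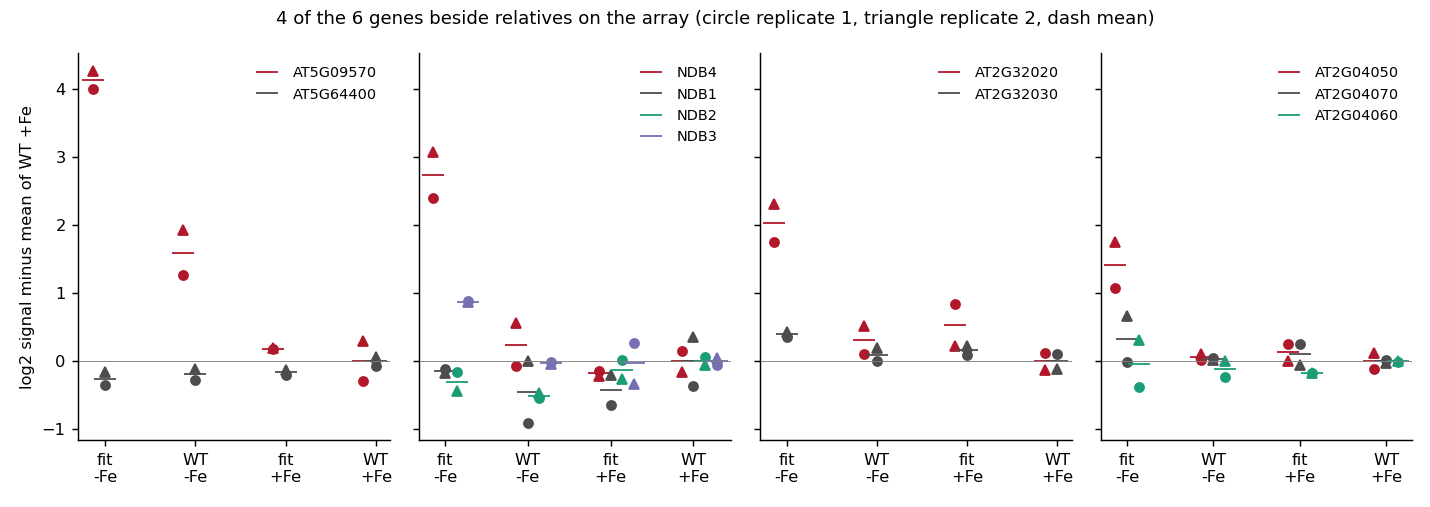
For 4 of the 6 genes (red) and their relatives or neighbours, the log2 signal minus the mean of WT +Fe is plotted by group, with circles for replicate 1, triangles for replicate 2 and dashes for means. NDB3, at 6.68 and 6.66 in fit -Fe roots, is the relative with the clearest separation of the fit -Fe pair from its other arrays.

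Genes of the same pathways were taken from 15 lists with 181 genes, of which 53 were measured by a probe set naming them alone. The rest may lie on the 8730 probe sets unnamed here or on shared ones. Of all probe sets, 0.202% were called for fit -Fe over fit +Fe, 0.273% for fit -Fe over WT -Fe and 0.0747% for the difference of the responses. Of other known targets of mitochondrial dysfunction 3 of 11 were measured and by limma 0 were called in any comparison. HSP23.5 (AT5G51440), a small heat shock protein of the mitochondrial matrix, had 6.91 and 6.01 in fit -Fe roots, 5.95 and 5.89 in WT -Fe roots, 5.18 and 5.02 in fit +Fe roots and 4.98 and 4.98 in WT +Fe roots. Its -Fe arrays all lay above its +Fe arrays, with log2 fold changes of 1.36 in fit (SE 0.28, limma adjusted p = 0.189) and 0.94 in WT (SE 0.28, adjusted p = 0.456). In fit it was called without fit -Fe replicate 2 (log2 1.81, limma adjusted p = 0.032), also with WT -Fe replicate 2 left out (adjusted p = 0.0262), and with the control ratio as a covariate (log2 1.72, adjusted p = 0.0129), over a range of adjusted p from 0.0129 to 0.983. In WT it was called under the covariate alone (log2 1.07, limma adjusted p = 0.031). None of the 13 listed regulators of mitochondrial signalling and none of the alternative oxidases had a probe set naming it alone, so the best known markers of the route were not analysed here.

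Of 24 listed nuclear subunits of the respiratory chain 14 were measured, and by limma 0 were called in any comparison. In fit -Fe against WT -Fe roots all 14 had a negative log2 fold change, with a median of -0.41, while 45.6% of all probe sets did so, with a median of 0.03. For fit -Fe over fit +Fe 12 of the 14 were negative, with a median of -0.55, beside 45.3% of all probe sets. In WT -Fe over WT +Fe 9 were, with a median of -0.16, beside 51.4%. COX6A had -0.00 and CYTC-1 -0.01 in fit -Fe against WT -Fe, AT5G11770, the PSST iron-sulfur subunit of complex I, had -0.39 (SE 0.17), and MPPBETA, a core subunit of complex III, had -0.54 (SE 0.39), which turned to 0.10 without fit -Fe replicate 2. The lowest, singled out after the values were seen, was COX5B-1 (AT3G15640), a subunit of complex IV, with 10.50 and 10.41 in fit -Fe roots against 11.17 and 11.26 in WT -Fe roots (log2 -0.76, SE 0.17, limma adjusted p = 0.287). Without replicate 2 of both -Fe groups, 12 of the 14 were negative in fit -Fe against WT -Fe with a median of -0.41, and for fit -Fe over fit +Fe 13 were, with a median of -0.21.

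Mitochondrially encoded transcripts, matched by symbol for 8 of 14 genes, were not called either. In fit -Fe against WT -Fe 7 of 8 were positive, with a median of 0.67, beside 54.4% of all probe sets, with a median of 0.03. The 4 brightest, nad4, cox1, cox2 and nad5, had log2 fold changes of 0.65 (SE 0.67), 0.47 (SE 0.48), 0.42 (SE 0.29) and 0.73 (SE 0.17). Single arrays decided the sign of some: nad4 had -0.24 without WT -Fe replicate 1 and 1.55 without WT -Fe replicate 2, and cox1 had -0.30 without fit -Fe replicate 2 and 1.23 without fit -Fe replicate 1. Leaving out 1 array gave 0.16 to 0.68 for cox2 and 0.65 to 0.81 for nad5. The highest of the 8, singled out after the values were seen, was nad9, a complex I subunit, with 5.43 and 7.29 in fit -Fe roots against 4.66 and 5.70 in WT -Fe roots (log2 1.18, SE 0.59), which became 0.26 without fit -Fe replicate 2 and 2.11 without replicate 1. Replicate 2 was the higher of each pair. For fit -Fe over fit +Fe the list's median of 0.46 became 0.09 without both arrays of high control ratio and -0.02 with the ratio as a covariate. Between replicate 1 of fit -Fe and replicate 1 of WT -Fe, every gene of the 8 but nad7 was higher in fit -Fe. The gap ran from cox1, at 8.11 against 8.08, to nad4, at 8.74 against 7.63, while nad7 had 4.07 against 4.34. For every gene but nad7, WT -Fe replicate 1 was the lowest of all 8 arrays, so the comparison leans on 1 low array. Against WT +Fe replicate 1, fit -Fe replicate 1 was lower for all of the 8 but nad5, as for nad4, at 8.74 against 9.75. In WT -Fe over WT +Fe 6 of the 8 were negative, with a median of -0.36, beside 51.4% of all probe sets. In fit +Fe over WT +Fe 6 were too, with a median of -0.24, beside 50.4%. Chromosome 2 of this species holds a copy of much of the mitochondrial genome, and the probe sets do not tell the copies apart. Those of nad5 and nad6 are of the _s_at type, in which probes may match several transcripts.

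Of the 4 measured antioxidant enzymes, SAPX, the stromal ascorbate peroxidase and a haem enzyme, was called. It had 8.40 and 8.30 in fit -Fe roots, 9.16 and 8.89 in WT -Fe roots, 9.80 and 9.93 in fit +Fe roots and 10.21 and 10.38 in WT +Fe roots. It fell in fit -Fe against fit +Fe (log2 -1.51, SE 0.18, limma adjusted p = 0.0268) and in WT -Fe against WT +Fe (log2 -1.27, SE 0.18, adjusted p = 0.0375). The call in fit was lost without fit -Fe replicate 2, alone or with WT -Fe replicate 2, where the log2 fold change was -1.46, or without any single +Fe array (-1.58 to -1.44). The call in WT was lost without any single WT array (-1.40 to -1.14), without either fit +Fe array (-1.27) without both -Fe replicates 2 together (-1.14) and with a trended and robust variance. GR1, GR2 and PRXIIF, of glutathione reduction and peroxide removal, had log2 fold changes of -0.03 (SE 0.23), -0.38 (SE 0.34) and -0.15 (SE 0.20) for fit -Fe over fit +Fe and were not called.

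Among 3 measured genes of oxidative stress detoxification none was called. GSTU25, a glutathione transferase, had 10.70 and 11.05 in fit -Fe roots, 9.69 and 9.69 in WT -Fe roots, 10.10 and 9.82 in fit +Fe roots and 10.09 and 9.96 in WT +Fe roots. Its fit -Fe pair was the highest, with a log2 fold change of 1.19 over WT -Fe (SE 0.20, limma adjusted p = 0.0891). The glycosyltransferases UGT73B4 and UGT73B5 had -0.11 (SE 0.29) and -0.04 (SE 0.47) in that comparison. The 3 measured low oxygen genes, PDC2, HRA1 (AT3G10040) and CML38, had log2 fold changes between -0.50 and -0.34 for fit -Fe over fit +Fe and none was called. The 2 measured genes of mitochondrial iron-sulfur assembly, ISU1 and AT4G32360, and the 2 mitochondrial iron transporter genes AT1G07030 and AT2G30160 had log2 fold changes between -0.53 and -0.17 in that comparison, likewise not called. The 1 measured member of the heat shock list, AT1G53540, had 0.20 (SE 0.21).

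Of the list for abscisic acid and water stress 3 of 13 were measured. Of these, AT3G02480, of a late embryogenesis abundant family, and PUB19, a U-box ubiquitin ligase, were put on the list with their values in these arrays already known, so their calls are no independent support. AT3G02480 had 11.66 and 11.40 in fit -Fe roots, 6.21 and 6.16 in WT -Fe roots, 6.75 and 7.35 in fit +Fe roots, and 4.77 and 4.52 in WT +Fe roots. PUB19 had 8.93 and 8.74 in fit -Fe roots, 6.25 and 6.36 in WT -Fe roots, 6.88 and 7.06 in fit +Fe roots and 6.04 and 6.19 in WT +Fe roots. Both were highest in fit -Fe, and in both the fit +Fe pair lay above the WT -Fe pair, an order that none of the 6 genes had. The means of AT2G32020 (7.20 against 6.98) and AT2G04050 (4.30 against 4.23) were also higher in fit +Fe than in WT -Fe, but their pairs overlapped. AT3G02480 rose in fit -Fe against fit +Fe (log2 4.48, SE 0.24, limma adjusted p = 0.00191) and against WT -Fe (log2 5.34, SE 0.24, adjusted p = 0.000123), and in WT -Fe against WT +Fe (log2 1.54, SE 0.24, adjusted p = 0.0484). The call in WT was kept under 6 of 14 alternatives. Between fit +Fe and WT +Fe its log2 fold change was 2.41 (SE 0.24, limma adjusted p = 0.0508), which passed under 7 of 14 alternatives, with adjusted p from 0.00499 to 1.0. PUB19 rose in fit -Fe against fit +Fe (log2 1.86, SE 0.18, limma adjusted p = 0.0101) and against WT -Fe (log2 2.53, SE 0.18, adjusted p = 0.0016), the first call being lost without either fit +Fe array (1.77 and 1.95). COR15A, a cold-regulated gene, had a log2 fold change of 0.10 (SE 0.20) for fit -Fe over WT -Fe and was not called.

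**Figure D5:**
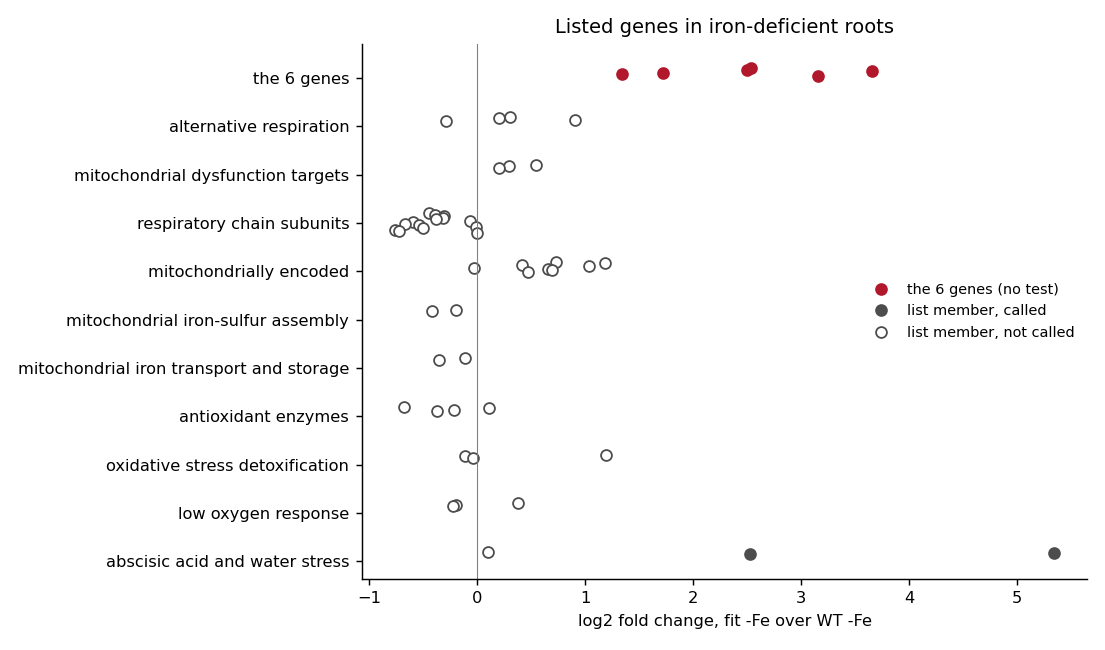
The log2 fold change of fit -Fe over WT -Fe (horizontal axis) is plotted for the 6 genes and for the measured members of 10 lists, filled where limma called the member and open where it did not. The 14 respiratory chain subunits lie between -0.76 and 0.00, the 6 genes between 1.35 and 3.66, and the 2 called list members are AT3G02480 and PUB19.

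The genes with the most similar pattern were sought among 904 named genes with an SD of at least 0.5 over the arrays, by Pearson's r with the mean of the 6 standardised profiles over the 8 arrays. The closest was AT1G10875 (r = 0.971), with 7.60 and 8.04 in fit -Fe roots, 5.49 and 5.51 in WT -Fe roots, 5.08 and 4.57 in fit +Fe roots and 5.21 and 4.44 in WT +Fe roots. It was followed by AT1G02700 (r = 0.964), AT5G25840 (r = 0.963), AT3G01490 (r = 0.956) and AT2G35480 (r = 0.953). AT1G49500, AT1G12030, AT1G69660, AT3G02480 and AT5G01670 completed the 10 with r from 0.932 to 0.925. Of these AT5G25840 had 8.27 and 8.01 in fit -Fe roots against 4.77 and 4.94 in WT -Fe roots, and it was not higher on replicate 2 of fit -Fe as the 6 genes were. AT1G12030, at 7.72 and 6.92 in fit -Fe roots, AT3G02480 and AT5G01670 had the same order of replicates. Taken singly, AT1G10875 was the closest gene to AT5G09570 (r = 0.948), NDB4 (r = 0.976) and AT2G41730 (r = 0.973). AT1G02700 was closest to AT2G21640 (r = 0.969), AT3G01490 to AT2G32020 (r = 0.976) and AT1G49500 to AT2G04050 (r = 0.975). The points share libraries, and the high fit -Fe pair carries most of each value.

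Of the root markers, EXPA7 had 7.76 and 7.62 in fit -Fe roots, 9.21 and 8.77 in WT -Fe roots, 9.05 and 8.87 in fit +Fe roots and 9.06 and 8.03 in WT +Fe roots. EXPA18 had 7.70 and 7.33 in fit -Fe roots against 8.96 and 8.13 in WT -Fe roots. Both pairs of fit -Fe arrays were the lowest, though neither gene was called (limma adjusted p = 0.365 for EXPA7 and 0.553 for EXPA18, fit -Fe over WT -Fe). In RNA of roots as a mixture of cells, fewer cells of a type and less RNA per cell cannot be told apart, and the part of root hair cells in the values of the 6 genes was not tested.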

How the data were processed

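Total RNA from roots was labelled with biotin by a one-cycle protocol and hybridised to Affymetrix arrays, per the labels' protocols. The deposited intensity values are linear signals per probe set between 7.13 and 21060, made by the authors with RMA per the submitters' processing notes. No source used here gives the software version, a genome build or whether all 8 arrays went through RMA as a set. Log2 was taken of the deposited values. Groups came from the sample titles. After 64 control probe sets were left out, group means were fitted to all 8 arrays for 22746 probe sets with limma 3.58.1 in R 4.3.3 (4 residual and 3.82 prior degrees of freedom). Each of 5 comparisons was tested with Benjamini-Hochberg adjustment over all probe sets and calls at an adjusted p under 0.05. SE is that of the fit and SD that of 2 arrays. The number of arrays limits the precision. Each p-value sets a difference against a spread estimated from these samples and moderated over all probe sets.

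Gene names came from GEO's platform annotation, updated through RefSeq's TAIR10.1 gene table, which served for names and neighbours only: 13513 probe sets named 1 gene, 503 several and 8730 none here. Where a gene has several probe sets, the brightest was taken. The 6 genes and the lists were chosen with earlier results of these data known. Named list genes were, by rule, the called members, the relatives, and up to 4 members with the highest mean signal, and the 10 genes most like the 6 and 3 most like each were ranked by r, of which the closest for each is given. The fit was tested on simulated data. Alternatives were quantile normalisation, a filter on dim probe sets, a trended and robust variance, a replicate block, the 3' to 5' ratio (log2) as a covariate, leaving out the 2 arrays of high ratio, and leaving out each array. Their use on single list genes, and on the signs of the respiratory chain and mitochondrially encoded lists, was chosen after seeing the data.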

Additional observations from a re-analysis of the deposited data

Results flagged for a closer look

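A test of the difference of the iron responses singled out AT3G02480, a gene put on its list with its values in these arrays already known, so the test is no independent support. Its response was higher in fit than in WT, by 2.93 on the log2 scale (SE 0.34, limma adjusted p = 0.0393), with 22.3-fold higher signal in fit -Fe than in fit +Fe roots and 2.92-fold higher signal in WT -Fe than in WT +Fe roots. Both arrays of each -Fe group lay above both arrays of its +Fe group. The call was kept under 6 of 14 alternatives, with values from 2.64 to 3.23 and adjusted p from 0.00607 to 0.256 over all of them. It was lost without fit -Fe replicate 1 (2.81), without replicate 2 of both -Fe groups (3.04) and without any single array of the other 3 groups (2.64 to 3.23). The groups of 2 arrays are too small for a check of single outlying arrays.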

How the results depend on the processing

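The median log2 fold change of the 6 genes moved by less than the spread between replicates in all 5 comparisons under all 14 alternatives. That spread, the SD within groups of the median signal of the 6, takes in the wide gaps between the -Fe replicates. A group of 2 could hardly move the median further by losing 1 array, so nothing is read from this for those alternatives. Leaving out 1 array gave 2.87 to 3.67 for the iron response in fit, 2.19 to 2.85 for fit against WT under iron deficiency, 2.19 to 2.84 for the difference of the responses, 0.15 to 0.94 for the iron response in WT and 0.10 to 0.33 for fit against WT under iron sufficiency. Counts of called probe sets moved more, and the causes were not tested. They were 46, 62, 17, 98 and 2 in these comparisons, in that order. With the control ratio as a covariate they were 147, 188, 93, 382 and 20, and with a replicate block 145, 134, 40, 201 and 4. Under iron sufficiency the count was 4 with a trended and robust variance, with quantile normalisation or after the dim filter, and 6 without the 2 arrays of high ratio. Leaving out 1 array gave 1 to 69, 21 to 75, 3 to 26, 26 to 140 and 0 to 6, the lowest of the first without either fit +Fe array. Deviations of equal replicate numbers correlated most between fit -Fe and WT -Fe (r = 0.66 over 22746 probe sets), the groups whose replicates 2 have the high control ratios. In the other pairs of groups r was 0.13 to 0.41, and the labels tie the numbers to no shared batch. AT5G09570 was called in the iron response in WT with the replicate block (adjusted p = 0.0132) and with the covariate (adjusted p = 0.0110), at 1.60 and 1.49, and under no other alternative. No other of the 6 was called in that comparison, or between the genotypes with iron, under any alternative. Among list genes with no call in the report's fit, calls were also gained with the covariate by CYTC-2 in the iron response in fit (-1.70) and in WT (-1.24), by nad9 in WT (-1.06), by GSTU25 in fit against WT under iron deficiency (1.14) and by PUB19 in the difference of the responses, with the replicate block by EXPA18 in the iron response in fit (-1.23), and without the 2 arrays of high ratio by CYTC-2 in WT (-1.45).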
